A study of Mus musculus with 24 samples.

Results

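Leukaemias of mice that lack Blnk were compared with leukaemias of mice that carry it, 8 tumours against 8 tumours, out of 24 mouse arrays in all. The Blnk-deficient tumours were 5 precursor B-cell acute lymphoblastic leukaemias (preB-ALL) of homozygous Blnk knockout mice, called Blnk preB-ALL here, and 3 preB-ALL of Blnk knockout mice with a Cebpb LAP transgene, called LAP/Blnk preB-ALL. The Blnk-intact tumours came from Cebpb LAP transgenic mice with intact Blnk: 4 were preB-ALL, called LAP preB-ALL, and 4 were B-ALL, called LAP B-ALL. No animal was treated, and the growth protocol describes nothing else that all tumours share. The tumours were chosen by these titles, and the genes by a single rule: all 8 tumours of one arm had to lie above all 8 of the other. Of 17097 genes measured, 147 separated the arms in this way (0.86%), of which 107 were higher in Blnk-deficient tumours (0.626%) and 40 were lower (0.234%).

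By label, LAP was present in 3 of the 8 Blnk-deficient tumours and in all 8 Blnk-intact tumours, and B-ALL made up 4 of the Blnk-intact tumours alone. The arms therefore differ in LAP and in the type of leukaemia as well as in Blnk, and these cannot be told apart in the pooled comparison. The sources used here give neither the strain, age or sex of the mice, nor the tissue sampled and its share of tumour cells, nor the deleted part of Blnk, nor the promoter that drives LAP. The labels do not say that each tumour came from another mouse, so each p-value reflects the tumour-to-tumour spread and nothing wider, which may be technical. No normal B cells were measured.

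Blnk, also named SLP-65, is the adaptor that Syk phosphorylates once a precursor B cell displays its pre-B-cell receptor, a heavy chain paired with the surrogate light chain of Vpreb and Igll1. It brings Btk and phospholipase C-gamma 2 together, and the signal that follows ends proliferation driven by interleukin 7 and lets the cell rearrange its light-chain genes. Mice without Blnk have a block at the pre-B stage and are prone to pre-B leukaemia. LAP is the activating form of C/EBPβ, a leucine zipper factor encoded by Cebpb that is best known for myeloid genes.

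The 4 promoters below belong to the separating genes with the largest differences in each direction. Each line holds the 250 bases before the gene's start in RefSeq on GRCm38.p6, read 5′ to 3′ on the strand of the gene. They are chr9:97018356-97018605 on the minus strand for Spsb4, chr19:58455399-58455648 on the minus strand for Gfra1, chr13:75707234-75707483 on the plus strand for Ell2 and chr14:34673678-34673927 on the plus strand for Wapl. Capitals mark the motifs that were searched for on both strands.
Spsb4: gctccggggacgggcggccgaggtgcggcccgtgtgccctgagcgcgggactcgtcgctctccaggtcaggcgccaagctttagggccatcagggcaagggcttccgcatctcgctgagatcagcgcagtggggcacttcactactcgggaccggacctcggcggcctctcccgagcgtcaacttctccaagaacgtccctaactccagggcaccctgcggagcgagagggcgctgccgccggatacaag
Gfra1: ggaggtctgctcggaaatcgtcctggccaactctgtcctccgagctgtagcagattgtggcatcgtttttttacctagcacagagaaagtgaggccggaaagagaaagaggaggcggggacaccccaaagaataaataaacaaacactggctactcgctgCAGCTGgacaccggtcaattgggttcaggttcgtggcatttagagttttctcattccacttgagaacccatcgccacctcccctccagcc
Ell2: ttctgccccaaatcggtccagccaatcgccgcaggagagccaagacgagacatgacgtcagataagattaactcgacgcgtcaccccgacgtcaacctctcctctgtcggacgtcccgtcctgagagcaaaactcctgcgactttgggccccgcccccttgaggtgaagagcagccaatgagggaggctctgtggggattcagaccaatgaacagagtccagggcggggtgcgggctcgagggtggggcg
Wapl: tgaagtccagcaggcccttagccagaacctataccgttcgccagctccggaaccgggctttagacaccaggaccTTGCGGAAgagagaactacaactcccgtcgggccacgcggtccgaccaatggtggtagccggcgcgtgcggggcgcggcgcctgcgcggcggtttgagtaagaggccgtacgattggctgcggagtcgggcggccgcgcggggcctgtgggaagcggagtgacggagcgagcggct
The motifs were TTGCNNAA, the letters of a C/EBP site, and CAGGTG and CAGCTG, letters bound by E proteins of the B lineage. No match overlapped another in these windows. Gfra1 held CAGCTG at -90 from the start and Wapl held TTGCNNAA at -176, while the windows of Spsb4 and Ell2 held none of these letters. A promoter was on file for 130 of the 147 separating genes. TTGCNNAA stood in 2 of 94 promoters of the higher genes (2.13%), in 3 of 36 of the lower genes (8.33%) and in 9.55% of all 27025 promoters. CAGGTG stood in 15 of the higher (15.96%) and 9 of the lower (25%), against 17.1% of all, and CAGCTG in 7 (7.45%) and 3 (8.33%), against 12.8%. A match describes the letters of the window and shows no binding.

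Every value below is the log ratio of a gene's probe set to its median over the 16 tumours, as the authors deposited it, and is read as log2, although the sources used here do not state which base it has. No level was kept, so genes cannot be ranked by abundance, and a separating gene has its arms on opposite sides of 0 by construction. Differences are Blnk-deficient minus Blnk-intact. The gap of a gene is the distance between the nearest tumours of the arms, above 0 where the arms separate. A gene is said to have passed the test, or to have risen or fallen, where limma gave an adjusted p under 0.05 over all genes.

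The tumour labelled LAP B-ALL 4 stood apart from its label in the Cebpb probe set with the largest spread. That probe set lay between -4.50 and -1.94 in the 5 Blnk preB-ALL and between -0.03 and 0.51 in the 3 LAP/Blnk preB-ALL. It lay between -1.41 and 0.90 in 7 tumours of LAP mice, but at -3.11 in the tumour labelled LAP B-ALL 4, inside the range of the Blnk preB-ALL. Over the arms Cebpb averaged -2.02 ± 2.03 in Blnk-deficient tumours and -0.37 ± 1.29 in Blnk-intact tumours (SD, n = 8 each), a difference of -1.66 (exact permutation p = 0.0702, two-sided, adjusted 0.14 over 4 probe sets). The other Cebpb probe sets differed by -1.09 (exact permutation p = 0.0399, adjusted 0.14) and 0.03 (exact permutation p = 0.77). In the former the tumour labelled LAP B-ALL 4 lay at -0.36, above LAP preB-ALL 1 at -0.43. LAP/Blnk preB-ALL 2 and 3 lay there at -1.28 and -1.18. In the latter the tumour labelled LAP B-ALL 4 was the lowest of all tumours, at -0.37.

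Blnk itself did not check the labels. Its single probe set averaged 0.15 ± 0.73 in Blnk-deficient tumours and 0.29 ± 0.70 in Blnk-intact tumours (SD, n = 8 each), a difference of -0.14 (exact permutation p = 0.694, two-sided, adjusted 0.77). A probe set outside the deleted part may carry no information on the knockout, and whether this one lies in the deleted part does not appear in the sources used here.

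4 Blnk-intact tumours also stood apart from the other 12 in erythroid and platelet markers. The median of 13 erythroid and platelet markers was 4.84 to 5.42 in LAP preB-ALL 4 and LAP B-ALL 1, 2 and 3, and -0.55 to 0.30 in the other 12 tumours. Alas2, which makes heme in red-cell precursors, differed by -3.55 between the arms and the anion exchanger Slc4a1 by -3.88, and 0 of the 13 markers passed the test. In those 4 tumours the median of 16 monocyte and macrophage markers was 0.77 to 1.51, against -0.88 to 0.82 in the other 12, and that of 12 T-cell markers was 0.60 to 2.25, against -0.52 to 1.31. The median of 16 granulocyte markers was 1.10 to 2.44 in those 4, against -0.71 to 3.16, with the highest value in Blnk preB-ALL 5. These 3 lists overlapped between the 4 tumours and the other 12. In bulk tissue, fewer cells of a type and less RNA per cell cannot be told apart. Results are therefore also given without the tumour labelled LAP B-ALL 4 and, separately, without these 4 erythroid-high tumours, which leaves 8 tumours against 4. The 4 Blnk-intact tumours then left are LAP preB-ALL 1, 2 and 3 and the tumour labelled LAP B-ALL 4, which thus weighs more in those values. These exclusions were not combined.

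Among the genes higher in Blnk-deficient tumours, Spsb4 stood apart. It encodes a SPRY-domain protein that carries substrates to a ubiquitin ligase. Its log2 ratio ran between 0.72 and 2.88 in the 8 Blnk-deficient tumours (median 2.03) and between -1.997 and -0.72 in the 8 Blnk-intact tumours (median -1.62). All 3 LAP/Blnk preB-ALL and Blnk preB-ALL 3 were near the top at 2.68 to 2.88, and the lowest Blnk-deficient tumour was Blnk preB-ALL 1. The gap of 1.45 was the widest of the 147 genes, and the difference was 3.53 ± 0.34 (SE, n = 8 each; limma adjusted p = 0.000147), which is 11.6-fold. Its other probe set separated the arms too, with a difference of 2.02. The difference was 3.59 without the tumour labelled LAP B-ALL 4 and 3.24 without the 4 erythroid-high tumours (limma adjusted p = 0.0347).

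Gfra1, the co-receptor through which the growth factor GDNF reaches Ret, had the largest difference of the separating genes. It lay between 0.10 and 1.93 in Blnk-deficient tumours (median 1.05) and between -3.86 and -0.10 in Blnk-intact tumours (median -3.64), a difference of 3.97 ± 0.52 (SE; limma adjusted p = 0.00116). The gap of 0.21 was set by Blnk preB-ALL 2, which lay at 0.10, and by the tumour labelled LAP B-ALL 4, which lay at -0.10. LAP preB-ALL 1 lay at -1.39, and the other 6 Blnk-intact tumours lay at -3.34 or below. Both other probe sets of Gfra1 separated the arms as well, with differences of 2.64 and 3.62. Without the 4 erythroid-high tumours the difference was 3.26 and did not pass (limma adjusted p = 0.0855).

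Further separating genes with large positive differences are each named here for the size of the difference alone. Kif20b, a kinesin of late mitosis, lay between 0.12 and 2.07 in Blnk-deficient tumours and between -1.46 and -0.12 in Blnk-intact tumours, a difference of 1.93 ± 0.27 (SE; limma adjusted p = 0.00148). Dnajc21, a J-domain co-chaperone needed for maturing ribosomes, lay between 0.24 and 1.19 in Blnk-deficient tumours, against -1.92 to -0.24 in Blnk-intact tumours, with the second widest gap of the higher genes, 0.48. Its difference was 1.81 ± 0.27 (SE; limma adjusted p = 0.00295), while of its 4 other probe sets 2 differed by 0.54 and 1.48 and 2 by 0.0015 and -0.0017. The probe sets of this gene therefore disagree. The uncharacterised transcript 2900026A02Rik differed by 2.90 and 9630013D21Rik by 1.52, with gaps of 0.103 and 0.105. Ripor1 differed by 1.52, but its other probe set lay at -0.19 and did not pass.

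The receptor kinase gene Epha2, which binds ephrins on neighbouring cells, lay between 0.05 and 1.34 in Blnk-deficient tumours and between -0.86 and -0.05 in Blnk-intact tumours, a difference of 1.48 ± 0.17 (SE; limma adjusted p = 0.000667). LAP preB-ALL 3 at -0.05 lay far above the other Blnk-intact tumours. Rnf169, a ring-finger protein that binds chromatin at DNA breaks, differed by 1.46, the spectrin gene Sptbn1 by 1.37 and the zinc-finger gene Zfp292 by 1.37. All 5 other probe sets of Zfp292 passed in the same direction, with differences between 0.34 and 0.86. Other probe sets of Sptbn1 passed at 0.55, 0.60 and 0.94, while those at 0.11 and 0.08 did not pass. Pik3cg, the gamma catalytic subunit of phosphoinositide 3-kinase, lay between 0.10 and 0.75 in Blnk-deficient tumours and between -1.69 and -0.10 in Blnk-intact tumours, a difference of 1.33, and its other probe set differed by 1.06. Tra2b, which selects exons during splicing, differed by 1.18 with a gap of 0.47. Papola, the poly(A) polymerase that tails mRNA, differed by 1.02 with a gap of 0.43.

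Differences of the 107 higher genes had a median of 0.73 and ran from 0.11 to 3.97, with 28 over 1. Their gaps had a median of 0.098, and 25 genes had a gap over 0.2. The narrowest gaps were those of Gcc2, a golgin, at 0.00044 and of Ralgapa1, a GTPase activator for Ral, at 0.0016. The other probe set of Gcc2 differed by 0.27 and did not pass. Those of Ralgapa1 differed by -0.05 to 0.24, and none passed. Just outside the rule lay Thoc2, of the complex that couples transcription to mRNA export, at -0.00053, and Wrap73 at -0.0015. These 4 genes differed by 0.71, 0.40, 0.39 and 0.41, so membership at the edge of the rule rests on distances much smaller than the differences themselves.

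**Figure D1:**
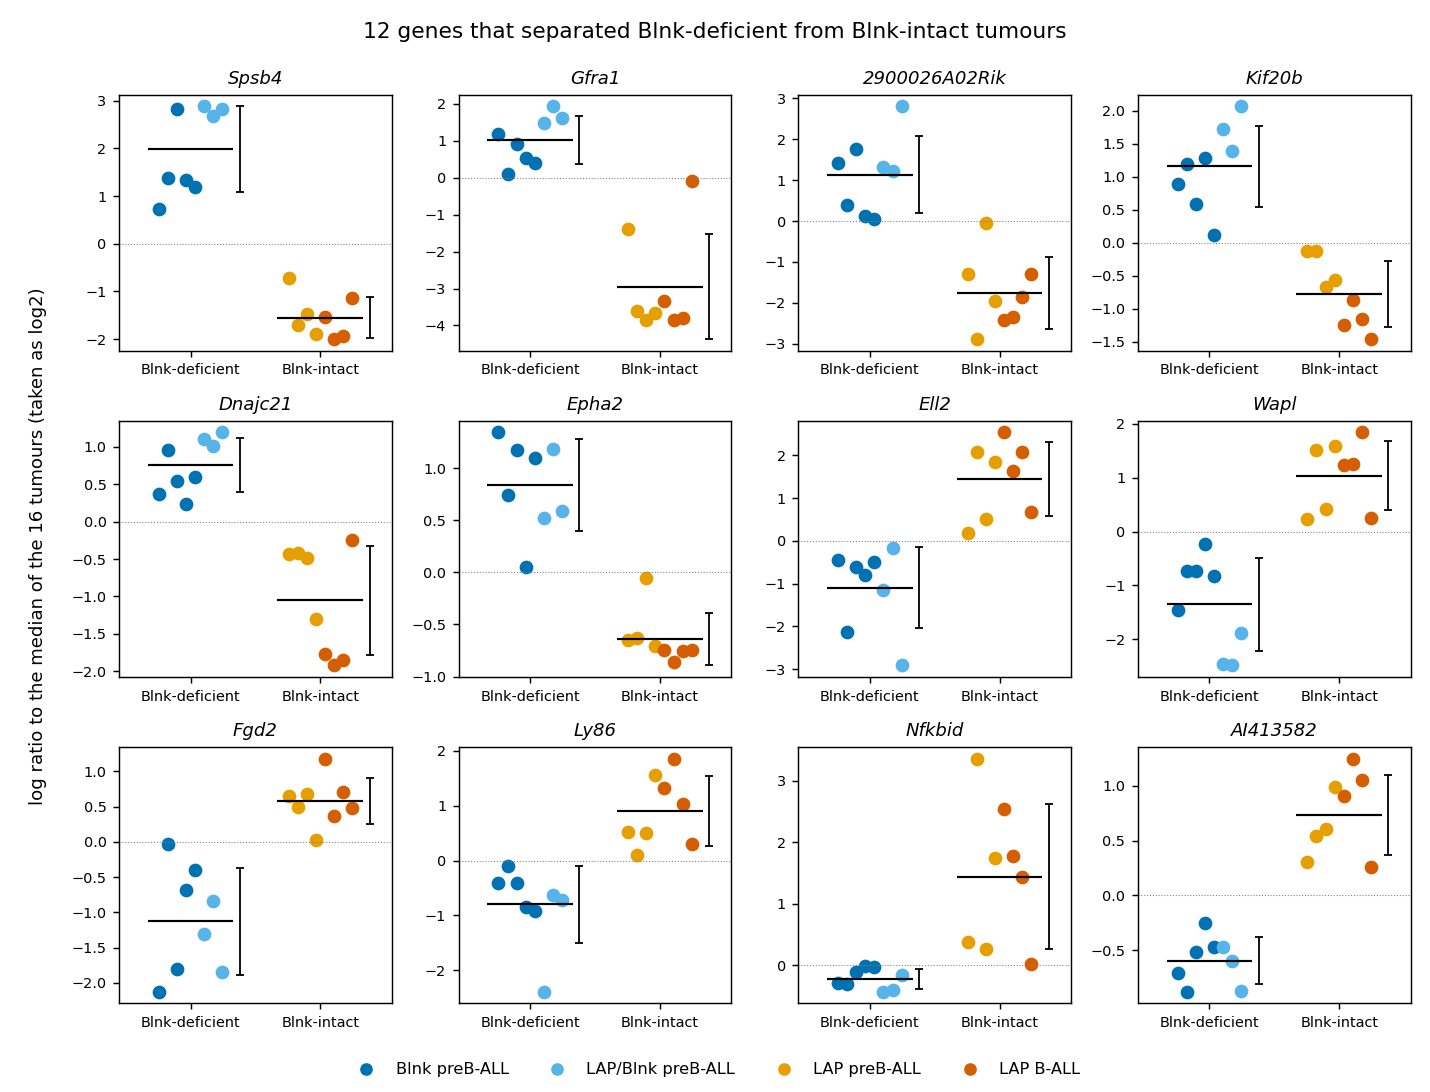
Log2 ratios to the median of the 16 tumours (vertical axes, a scale for each gene) of 12 separating genes in 8 Blnk-deficient and 8 Blnk-intact tumours. Points are tumours coloured by labelled group, lines are means, bars are SD, and the dotted line is 0. Spsb4 has the widest space between the arms (1.45), and Wapl and AI413582 have the widest among the genes that are lower in Blnk-deficient tumours (0.45 and 0.51).

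Among the genes lower in Blnk-deficient tumours, Ell2 and Wapl had the largest differences. Ell2 encodes a factor that speeds elongation by RNA polymerase II and is known for immunoglobulin secretion in plasma cells. It lay between -2.91 and -0.18 in Blnk-deficient tumours (median -0.72) and between 0.18 and 2.53 in Blnk-intact tumours (median 1.73), a difference of -2.53 ± 0.43 (SE; limma adjusted p = 0.00482). The nearest tumours were LAP/Blnk preB-ALL 2 at -0.18 and LAP preB-ALL 1 at 0.18. Ell2 differed by -1.95 without the 4 erythroid-high tumours and did not pass (limma adjusted p = 0.189). Wapl, which opens the cohesin ring to release it from chromatin, lay between -2.48 and -0.23 in Blnk-deficient tumours (median -1.15) and between 0.23 and 1.84 in Blnk-intact tumours (median 1.24). Its difference was -2.39 ± 0.36 (SE; limma adjusted p = 0.00277), and -1.95 without the 4 erythroid-high tumours (limma adjusted p = 0.142). The other 2 probe sets of Wapl differed by -0.06 and -0.11 and did not pass, so its separation rests on a single probe set.

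Further genes lower in Blnk-deficient tumours are given by size. Ly86, which encodes MD-1, the partner of the Toll-like protein RP105 of B cells, lay between -2.39 and -0.10 in Blnk-deficient tumours and between 0.10 and 1.86 in Blnk-intact tumours, a difference of -1.70 ± 0.32 (SE; limma adjusted p = 0.00792). LAP/Blnk preB-ALL 1 was the lowest tumour by far. Fgd2, an exchange factor for the GTPase Cdc42, differed by -1.71 and Nfkbid, a nuclear IκB protein that B cells need for some antibody responses, by -1.66 (limma adjusted p = 0.0235). The Blnk-deficient tumours held Nfkbid within a narrow range of -0.43 to -0.01, while the Blnk-intact tumours spread from 0.01 to 3.36. Nfkbid no longer passed when LAP B-ALL 1 was left out.

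AI413582, a transcript without a described role here, had the widest gap of the lower genes, 0.51. It lay between -0.88 and -0.26 in Blnk-deficient tumours and between 0.26 and 1.25 in Blnk-intact tumours, a difference of -1.33 ± 0.15 (SE; limma adjusted p = 0.000584), and of -1.02 without the 4 erythroid-high tumours (limma adjusted p = 0.0347). Mif4gd, which binds the protein on histone mRNA ends, differed by -1.28, and Eif2ak1, the heme-regulated kinase that slows translation, by -1.09. Both other probe sets of Eif2ak1 fell too, by 0.96 and 0.86. Eif2ak1 is best known in red-cell precursors, and without the 4 erythroid-high tumours it differed by -0.53 (limma adjusted p = 0.141). The palmitoyltransferase gene Zdhhc9 differed by -1.02, Tlcd1 by -1.01, the transcription-coupled repair gene Uvssa by -0.98 and Atp6v0b, a subunit of the proton pump of acidic organelles, by -0.85. The other probe set of Uvssa differed by 0.15 and that of Zdhhc9 by -0.22, and neither passed. Other probe sets of Tlcd1 differed by 0.09, which did not pass, and by -0.29 and -0.57, which passed but overlapped. Both others of Atp6v0b fell, by 0.51 and 0.30. The 40 lower genes had a median difference of 0.63 in size, from 0.16 to 2.53, with 10 over 1 and 5 gaps over 0.2. Pigs and Stpg4 had the narrowest gaps, 0.0064 and 0.0026, and Rdh5 and Krt6a just missed the rule at -0.000638 and -0.00224. The other probe set of Pigs differed by -0.14 and did not pass.

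Of the 147 separating genes 144 also passed the test, 104 of the higher and all 40 of the lower ones. The 3 that did not were Lrrtm2 at 0.71 (limma adjusted p = 0.0904), Ttll8 at 0.48 (adjusted p = 0.0786) and Plekhd1 at 0.11 (adjusted p = 0.108). Over all genes 1343 of 17097 passed (7.86%), 837 higher (4.9%) and 506 lower (2.96%) in Blnk-deficient tumours. The separation and the test read the same values, so the share of separating genes that passed is a description only. The median difference over all genes was 0.0023. Size and separation were distinct: 91 of the genes that passed differed by more than 2, and 5 of these separated the arms, namely Gfra1, Spsb4, 2900026A02Rik, Ell2 and Wapl.

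**Figure D2:**
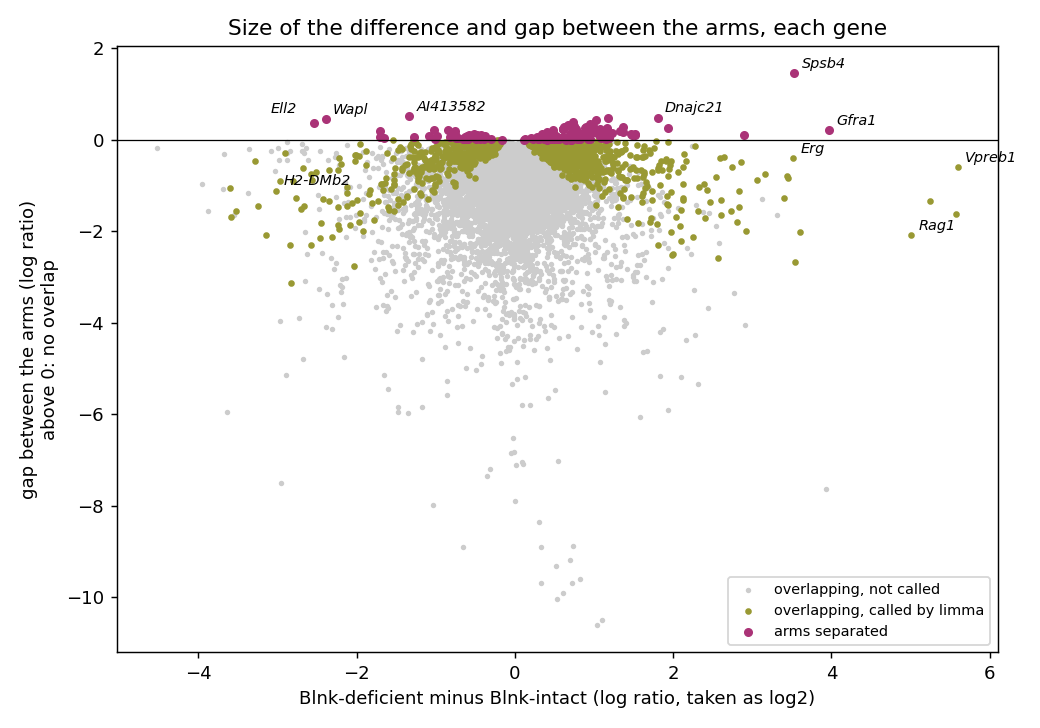
Each point is a gene of 17097, with the difference between Blnk-deficient and Blnk-intact tumours on the horizontal axis and the gap between the arms on the vertical axis (both log2). The 147 genes above 0 do not overlap between the arms, and most genes with differences over 2, such as Rag1 and Vpreb1, lie below 0.

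The other probe sets of the separating genes were not used by the rule, though they were read on the same arrays. Of the 107 higher genes 79 had more than 1 probe set, with 173 others, of which 161 had a positive difference and 73 passed in that direction, against 0 in the opposite one. Their median difference was 0.31, and 15 of them, from 13 genes, separated the arms as well. Of the 40 lower genes 22 had 33 other probe sets, of which 31 were negative, 14 passed and 2 separated, with a median of -0.30. Over all 45037 probe sets that are not controls, 324 separated as higher (0.719%) and 65 as lower (0.144%). Over the 28898 with a single gene symbol the shares were 0.592% and 0.18%. The share of all probe sets that passed was not counted, so the counts that passed are descriptions only.

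The chosen probe set carried a RefSeq mRNA accession in 7 of 107 higher genes (6.54%) and in 8 of 40 lower genes (20%), against 26.0% of all genes, 19.5% of the genes that rose and 29.6% of those that fell. The log ratio of the 3′ over the 5′ control probe sets of actin averaged 0.046 ± 0.073 in Blnk-deficient tumours and -0.033 ± 0.040 in Blnk-intact tumours (SD, n = 8 each; exact permutation p = 0.00746, two-sided, adjusted 0.0149 over 2 controls). For Gapdh the difference was 0.050 (exact permutation p = 0.218). The part of this difference between control probe sets in the gene results was not tested.

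No separating gene belonged to the 30 lists of pathways and cell types described further on, which held 435 measured genes. The genes of B-cell development with the largest differences overlapped between the arms, and in several of them a single tumour stood in the way. Leaving out the tumour labelled LAP B-ALL 4 raised the number of separating genes from 147 to 342, with 244 higher and 98 lower. The 195 gained genes included Enpep, the aminopeptidase BP-1 of pre-B cells, with a difference of 5.57, and the recombinase genes Rag1 (5.01) and Rag2 (3.54). They also included Bach2, Arntl, Tifa and Myb among the higher genes and the phosphatase gene Ptpn6 and the glycolytic gene Pfkl among the lower ones. Enpep was chosen for mention after its values were seen. Leaving out each of the other 15 tumours in turn gave between 152 and 236 separating genes. The 236 were reached without Blnk preB-ALL 5, and 227 without LAP preB-ALL 1.

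**Figure D3:**
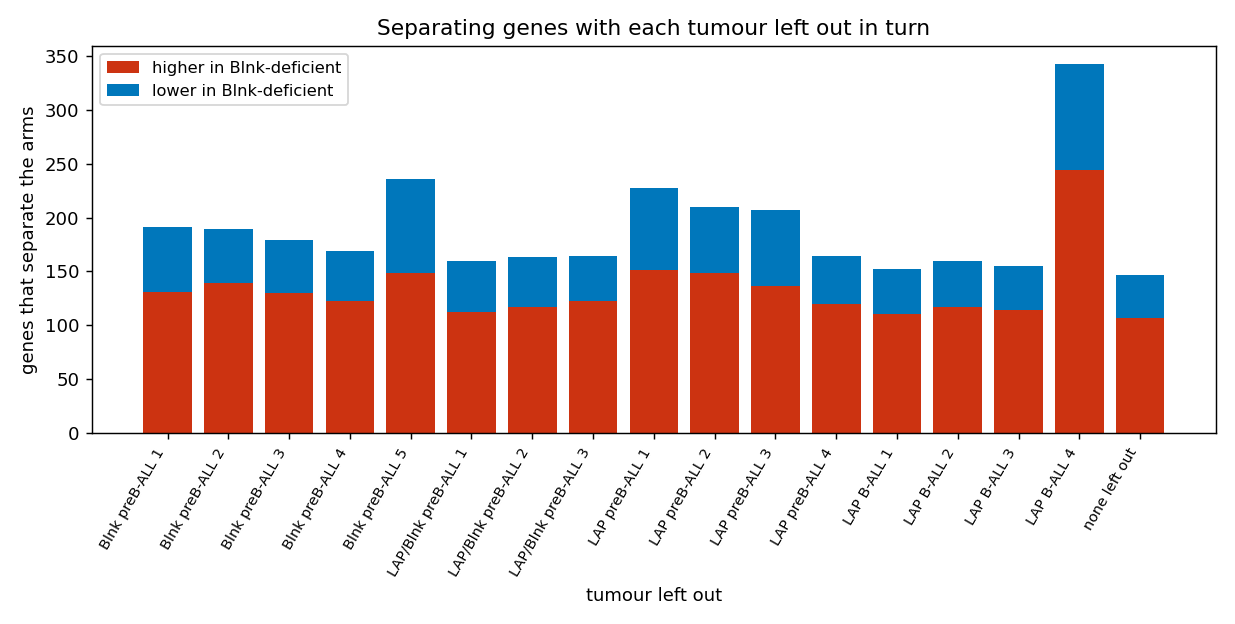
Number of genes that separate the arms (vertical axis) when the tumour on the horizontal axis is left out, split into genes higher and lower in Blnk-deficient tumours, with all 16 tumours in the last bar. The bar without the tumour labelled LAP B-ALL 4 reaches 342 genes and the last bar 147.

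Without the 4 erythroid-high tumours 20 genes passed the test, of which 18 had passed over all 16 tumours, and 270 genes separated the arms. Of the 147 separating genes 16 still passed: Spsb4, Pik3cg, Tra2b, Dnajc21, Zfp292, Papola, Cep350, Nr2c2, Apc, Hnrnpr, Birc6, Elf2, Cspp1, 4932431P20Rik, Alkbh2 and AI413582. Papola differed by 0.95, Hnrnpr, an RNA-binding protein, by 0.79, and Apc, the scaffold that marks β-catenin for destruction, by 0.86. Alkbh2, which repairs alkylated DNA, differed by -0.95. The remaining 4 genes that passed were Cdkn2c, Strada, Haao and Rapgef3.

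Counts of list genes are read against the shares over all genes, 4.9% higher and 2.96% lower, and list medians against 0.0023. The surrogate light chain and recombinase genes of precursor B cells lay higher in Blnk-deficient tumours, but not in every tumour. Of 6 pre-B-cell receptor components 2 rose and 0 fell, with a list median difference of 1.69. Vpreb1 lay between -0.45 and 0.35 in Blnk-deficient tumours (median 0.15) and between -8.97 and 0.14 in Blnk-intact tumours (median -8.64), a difference of 5.59 ± 1.53 (SE; limma adjusted p = 0.0384). The Blnk-intact tumours fell into 5 at -8.49 or below, which were LAP preB-ALL 2 and 4 and LAP B-ALL 1, 2 and 3, and 3 between -0.11 and 0.14. Vpreb1 passed in 3 of 16 fits that each left out 1 tumour, and differed by 2.21 without the 4 erythroid-high tumours (limma adjusted p = 0.537). Vpreb2, measured by a probe set whose name marks it as shared between similar transcripts, differed by 5.24, Vpreb3 by 3.13 (adjusted p = 0.057), and the receptor chains Cd79a and Cd79b by 0.19 each.

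Of 11 genes of V(D)J recombination and early B cells 4 rose and 0 fell. Rag1, which cuts immunoglobulin gene segments together with Rag2, lay between -0.08 and 2.17 in Blnk-deficient tumours (median 1.03) and between -6.62 and 2.00 in Blnk-intact tumours (median -5.88), a difference of 5.01 ± 1.10 (SE; limma adjusted p = 0.0167). The tumour labelled LAP B-ALL 4 at 2.00 was the only Blnk-intact tumour above the lowest Blnk-deficient one. LAP preB-ALL 3 was next at -0.41. Without the 4 erythroid-high tumours Rag1 differed by 2.98 (limma adjusted p = 0.362) and Rag2 by 2.12 (adjusted p = 0.385), and neither passed. The progenitor surface protein gene Cd93 (2.33) and Lef1, a factor of Wnt signalling and early B cells (2.13), rose as well, while the terminal transferase gene Dntt at 1.65 did not pass (adjusted p = 0.162).

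B-lineage transcription factors changed in both directions, with 5 of 24 higher and 2 lower and a list median of 0.36. The ETS factor gene Erg lay between -0.37 and 1.78 in Blnk-deficient tumours and between -4.65 and 0.04 in Blnk-intact tumours, a difference of 3.52 ± 0.73 (SE; limma adjusted p = 0.0133). Sox4 (3.41), the repressor gene Bach2 (2.93) and the early B-cell factor gene Ebf1 (2.09) rose too. Without the 4 erythroid-high tumours Sox4 differed by 1.73, Bach2 by 1.37 and Ebf1 by 0.78, the list median was 0.14, and none of the 24 passed. Spi1, which encodes PU.1, fell by 0.53 and Pou2f2, which encodes the octamer factor Oct-2, by 1.54. Pax5 differed by 0.44 and Foxo1 by 0.075, and neither passed. Of the 9 measured markers of pre-B identity 3 rose, 1 fell and the list median was 0.44.

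The genes that present antigen on MHC class II were lower. Of 12 measured genes 5 fell, 0 rose and all 12 differences were negative, with a list median of -1.92. H2-DMb1, a chain of the peptide loader, lay between -1.25 and 0.31 in Blnk-deficient tumours (median -1.05) and between -0.41 and 3.00 in Blnk-intact tumours (median 2.28), a difference of -2.52 ± 0.44 (SE; limma adjusted p = 0.006). Its partners H2-DMa (-2.81) and H2-DMb2 (-3.01) fell, as did the invariant chain gene Cd74 (-2.66) and the protease gene Ctss (-0.85). H2-Aa (-2.29), H2-Eb1 (-2.13) and the class II transactivator gene Ciita (-1.72) did not pass. By tumour the list median was -1.71 to 0.46 in Blnk-deficient tumours and -0.30 to 2.92 in Blnk-intact tumours. It was 1.78 to 2.92 in the 4 erythroid-high tumours and 2.85 in LAP preB-ALL 2, and without the 4 it differed by -0.97 with 0 genes past the test. Monocyte and macrophage markers, whose cells also carry MHC class II, had 2 lower of 16, the receptor gene Csf1r (-1.60) and Cd5l (-3.14), and 0 higher.

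Of 20 genes of immature and mature B cells 3 fell and 0 rose, with a list median of -0.95. The 3 were Cd74, H2-DMb2 and Tnfrsf13b, which encodes the receptor TACI and differed by -1.18. The membrane protein gene Ms4a1, which encodes CD20, differed by -3.63 and did not pass (adjusted p = 0.122).

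Over all 16 tumours, genes downstream of the receptor mostly lay lower in Blnk-deficient tumours. Of 23 pre-B-cell receptor signalling genes 1 rose and 5 fell, with a list median of -0.35. Without the 4 erythroid-high tumours the list median was -0.087, with 11 of 23 differences positive and 0 genes past the test. Malt1, the protease of the route to NF-κB, lay between -1.10 and 0.05 in Blnk-deficient tumours and between -0.20 and 1.64 in Blnk-intact tumours, a difference of -1.28 ± 0.25 (SE; limma adjusted p = 0.00995). The Src-family kinase gene Blk differed by -2.45, the adaptor gene Lat2 by -2.06, the calcium-dependent factor gene Nfatc1 by -1.31 and Ptpn6, which encodes the phosphatase SHP-1, by -1.27. The inositol phosphatase gene Inpp5d rose by 0.58. Blk was low, between -1.28 and -1.21, in LAP preB-ALL 1 and 3 and between 2.36 and 3.36 in the other 6 Blnk-intact tumours, and it passed in 4 of 16 fits that each left out 1 tumour. Syk differed by -0.02, Btk by 0.37 and Plcg2 by -0.35, and none of these passed.

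Of 18 NF-κB pathway genes 1 rose, 1 fell and 2 differences were positive, with a list median of -0.71. Bcl3, an IκB protein that acts in the nucleus, lay between -1.83 and 0.22 in Blnk-deficient tumours and between -0.19 and 2.99 in Blnk-intact tumours, a difference of -2.22 ± 0.43 (SE; limma adjusted p = 0.00936). Tifa, an adaptor for TRAF6, differed by 2.13 in the other direction, and the tumour labelled LAP B-ALL 4 lay at 1.14 against at most -1.37 in the other Blnk-intact tumours.

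Genes of the interleukin 7 response lay mostly lower, and those of the cell cycle changed in both directions. Of 17 interleukin 7 receptor and STAT5 genes 1 rose and 4 fell, with a list median of -0.45: Ccnd2 fell by 2.57, the survival kinase gene Pim2 by 0.88, the inhibitor gene Socs1 by 0.66 and Jak3 by 0.45, while Jak1 rose by 0.63. Ccnd2, the cyclin that drives cells from G1, lay between -2.94 and 2.00 in Blnk-deficient tumours and between -0.29 and 2.31 in Blnk-intact tumours. Blnk preB-ALL 5 at 2.00 and Blnk preB-ALL 4 at 0.14 lay among the Blnk-intact tumours, and the other 6 Blnk-deficient tumours were at -1.79 or below. Of 18 G1 cyclins and inhibitors the inhibitor genes Cdkn1a (1.03), Cdkn1b (0.82) and Cdkn2c (0.83) rose and Ccnd2 fell. Cdkn2c was the only list gene that also passed without the 4 erythroid-high tumours, at 1.21 (limma adjusted p = 0.0422). Of 30 genes of DNA replication and mitosis 6 rose and 1 fell, with the kinesin gene Kif11 at 1.15, the kinetochore genes Cenpf at 1.10 and Cenpe at 0.93 and the licensing gene Cdc6 at -0.76. Proliferation marker Mki67 differed by 0.04 and did not pass.

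Of 10 interferon-inducible GTPases 5 fell and 0 rose, with a list median of -1.40, among them Gbp2 (-1.91), Tgtp1 (-1.80), Igtp (-1.73) and Irgm2 (-1.58). These GTPases attack vacuoles that hold pathogens. The list median was 0.81 to 1.84 in the 4 erythroid-high tumours and -1.22 to 0.85 in the other 12, and without the 4 it differed by -0.80, with 0 of 10 past the test in limma. Of 21 type I interferon response genes Ifit2 rose by 1.05 and the nucleic acid sensor gene Zbp1 fell by 1.68. Only 5 of these 21 differences were positive, with a list median of -0.48. Among 18 immediate early genes Junb (-0.67) and Ier3 (-1.01) fell, and among 17 clock genes Arntl (2.43) rose and Nfil3 (-1.33) and Bhlhe40 (-1.05) fell. Arntl, the partner of Clock, lay between -0.01 and 1.204 in Blnk-deficient tumours and between -2.96 and -1.94 in 7 Blnk-intact tumours, with the tumour labelled LAP B-ALL 4 at 1.09. Tal1, a factor of stem cells and red-cell precursors, fell by 2.68 among 14 stem and progenitor genes, in which Erg and Myb rose, and differed by -1.04 without the 4 erythroid-high tumours. In the p53 list of 18, Cdkn1a rose and Pmaip1, a killer protein of the Bcl2 family, fell by 1.64. Among 13 Bcl2 family genes Bad rose by 0.73, 1 gene fell and 5 differences were positive, with a list median of -0.18.

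In the remaining lists at most 1 gene passed. Of 19 glycolysis and hypoxia genes Pfkl fell by 0.67, of 17 sterol synthesis genes Stard4 rose by 0.69, and of 20 C/EBP family genes and myeloid targets Csf1r alone fell. Of 21 Myc and ribosome biogenesis genes 0 passed at the adjusted threshold of limma, with a list median of 0.0082. Among the markers of other cells, 0 of 16 granulocyte, 0 of 15 stroma and endothelium and 0 of 8 plasma cell genes passed, with list medians of -0.67, 0.43 and -0.36. The T-cell and B1-cell protein gene Cd5 (-1.82) passed among 12 T-cell genes, the NK receptor gene Klrb1c (2.13) among 11 NK-cell genes and the integrin gene Itgax (-0.76) among 9 dendritic cell genes. Only 5 of the 11 NK-cell differences were positive, so most other NK-cell genes went the other way from Klrb1c. List medians were -0.19 for NK cells, -0.75 for T cells and -0.34 for dendritic cells.

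**Figure D4:**
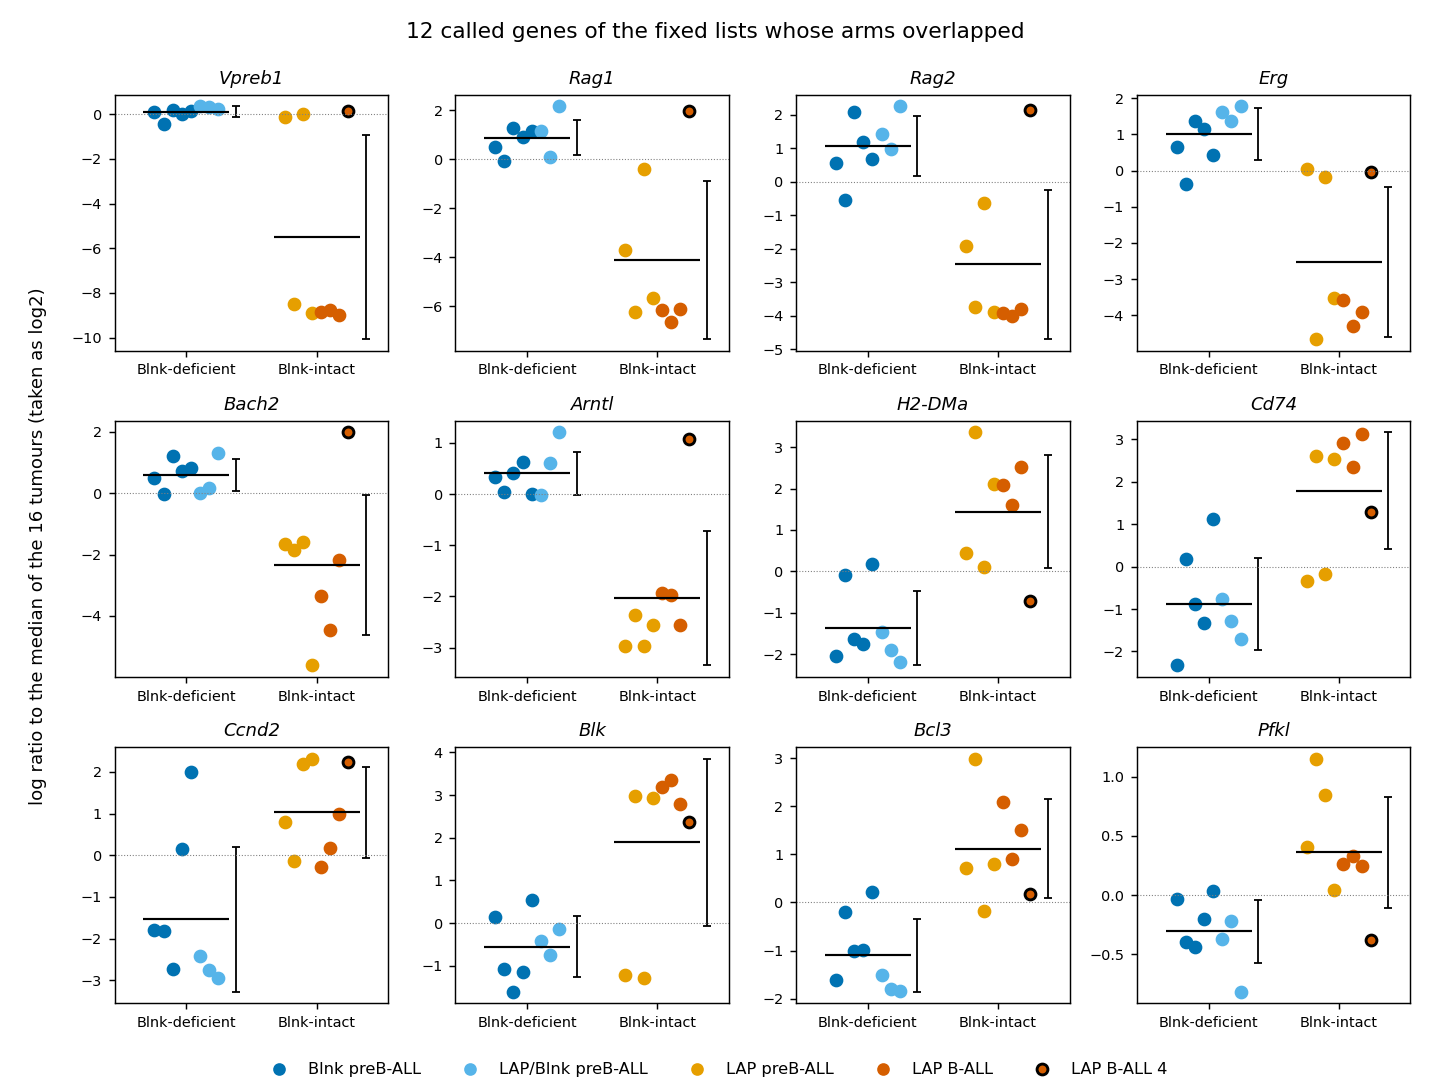
Log2 ratios to the median of the 16 tumours (vertical axes, a scale for each gene) of 12 genes that passed the test but overlap between 8 Blnk-deficient and 8 Blnk-intact tumours. Points are tumours coloured by labelled group, lines are means and bars SD, and a black ring marks the tumour labelled LAP B-ALL 4, which lies with the Blnk-deficient tumours for Rag1 (2.00), Arntl (1.09) and Vpreb1 (0.14).

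Of the 54 list genes named by rule, 19 passed in all 16 fits that each left out 1 tumour, among them Rag1, Rag2, Erg, Lef1, Cdkn2c, Kif11, Malt1, Bcl3, Cd74 and the 3 H2-DM genes. Other list genes named in the text were not counted here. No such fit leaves out all 4 erythroid-high tumours. Without those 4, Cdkn2c alone of the list genes passed. Erg then differed by 2.21 (limma adjusted p = 0.315) and Cd74 by -1.72 (adjusted p = 0.359). Of the 29 separating genes named by rule 26 did, the exceptions being Nfkbid, Pigs and Stpg4.

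The comparison was split by LAP, with both parts set against the same 8 tumours of LAP mice. In LAP/Blnk preB-ALL, where LAP is shared by label, 724 genes passed (4.23%), and of the separating genes 83 of 107 higher and 29 of 40 lower ones did. In Blnk preB-ALL 208 genes passed (1.22%), and 84 and 21 of the separating genes did. Spsb4 differed by 4.35 in LAP/Blnk preB-ALL and 3.04 in Blnk preB-ALL, and Gfra1 by 4.62 in LAP/Blnk preB-ALL and 3.58 in Blnk preB-ALL. Wapl differed by -3.31 in LAP/Blnk preB-ALL and -1.84 in Blnk preB-ALL, Ell2 by -2.85 in LAP/Blnk preB-ALL and -2.34 in Blnk preB-ALL, and Epha2 by 1.41 in LAP/Blnk preB-ALL and 1.53 in Blnk preB-ALL. These counts share their Blnk-intact tumours and are set side by side as descriptions. The separating genes were chosen from the same values, so high shares of them passing are built in by the rule. With LAP as a second term in the model 675 genes passed, and 109 of the 147 separating genes did, with Spsb4 at 4.35 (limma adjusted p = 6.15e-05). No Blnk-intact tumour lacks LAP, so the Blnk term of that model is LAP/Blnk preB-ALL minus the tumours of LAP mice. Its differences repeat those of LAP/Blnk preB-ALL above, and the Blnk preB-ALL add only to the estimate of spread.

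The labelled groups inside each arm were compared as well. Between LAP/Blnk preB-ALL and Blnk preB-ALL 3 genes passed (0.0175%), none of them separating; 9 of the higher and 2 of the lower separating genes were under an unadjusted p of 0.05. Between LAP B-ALL and LAP preB-ALL 0 genes passed in limma (0.0%), 1884 were under an unadjusted p of 0.05, and 13 of the higher and 3 of the lower separating genes were among these. Without LAP preB-ALL 4 the comparison of LAP B-ALL with LAP preB-ALL gave 291 genes, and without the 4 erythroid-high tumours, which leaves 1 LAP B-ALL assumed to vary like the other groups, 88. With array weights 4 genes passed in that comparison and 33 between LAP/Blnk preB-ALL and Blnk preB-ALL.

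BKO408 is a preB-ALL line from Blnk knockout mice, grown with interleukin 7 at 5 ng/ml, and 4 arrays of it after transduction with a Cebpb LAP retrovirus against 4 arrays of untransduced cells show these genes without a difference in Blnk. Transduction and LAP differ together there and cannot be told apart. Of all genes 10.6% rose and 11.8% fell with LAP. Of the 107 genes higher in Blnk-deficient tumours 9 rose (8.41%) and 14 fell (13.1%) with LAP. Spsb4 averaged -0.46 with LAP and 0.39 without it, a difference of -0.84 (limma adjusted p = 3.91e-06), and Gfra1 averaged -0.26 with LAP and 0.27 without it, a difference of -0.53 (adjusted p = 8.2e-07). Epha2 and Pik3cg fell as well. Of the 40 lower genes 14 rose (35%), with Nfkbid, Fgd2, Wapl, Ell2 and AI413582 among them, and 3 fell (7.5%), which were Hrob, Orai3 and Cog4. The cell-line ratios have a baseline of their own and cannot be set against tumour ratios in size.

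Chromosome 19, on which Blnk lies, held more genes that rose than any other chromosome by share. There 118 genes rose (20.8% of those measured on it, against 4.9% over all genes) and 5 fell. Those that separated were 4, namely Gfra1, Kif20b, the mRNA exporter gene Nxf1 and the respiratory subunit gene Ndufb8. All were higher, and their share of 0.704% lay near the 0.626% over all genes. The median of the chromosome, taken relative to all other autosomes, was 0.11 ± 0.15 in Blnk-deficient tumours and -0.053 ± 0.048 in Blnk-intact tumours (SD, n = 8 each; exact permutation p = 0.0104, two-sided, adjusted 0.0694 over 20 chromosomes). The 3 LAP/Blnk preB-ALL lay at 0.22 to 0.37 and the 5 Blnk preB-ALL at -0.080 to 0.066. Without the LAP/Blnk preB-ALL the difference was 0.062, against 0.16 with them (exact permutation p = 0.0995, adjusted 0.313). Of the 5 genes on each side of Blnk, 0 separated, and Gm8783 was the only one to pass, at 0.57 (limma adjusted p = 0.0493).

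Chromosome 12 held the largest share of separating genes, 15 of 574 (2.61%, against 0.626% over all genes), all higher. They include Pik3cg, Papola, the Fanconi anaemia helicase gene Fancm, and Pnn, Rbm25 and Sf3b6, whose proteins act in splicing. The median of chromosome 12 was 0.055 to 0.126 in Blnk preB-ALL 1, 2 and 5 and LAP/Blnk preB-ALL 1 and 2, -0.047 to -0.026 in the other 3 Blnk-deficient tumours and -0.036 to -0.018 in the 8 Blnk-intact tumours. The arms differed by 0.070 (exact permutation p = 0.0252, adjusted 0.111). Chromosome 16 held 9 separating genes of 561 (1.604%), with Tra2b, Bach1, Crebbp and Gsk3b among them, and a difference of 0.051 (adjusted 0.115). Chromosome 11 held 8 separating genes that were lower among 1362 (0.587%, against 0.234% over all genes) and 5 that were higher, and chromosome 17 held 6 lower ones among 785 (0.764%). The median of chromosome 11 differed by -0.030 (exact permutation p = 0.000466, adjusted 0.00932), with the tumour labelled LAP B-ALL 4 at 0.090. Without that tumour, left out after the data were seen, the difference was -0.019 (exact permutation p = 0.0014, adjusted 0.00932). The median of chromosome 4 averaged -0.0080 ± 0.0060 in Blnk-deficient tumours and 0.0057 ± 0.0067 in Blnk-intact tumours (SD, n = 8 each; exact permutation p = 0.0014, adjusted 0.014), and no other chromosome passed at an adjusted p of 0.05. The part of these chromosome medians in the gene results was not tested.

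**Figure D5:**
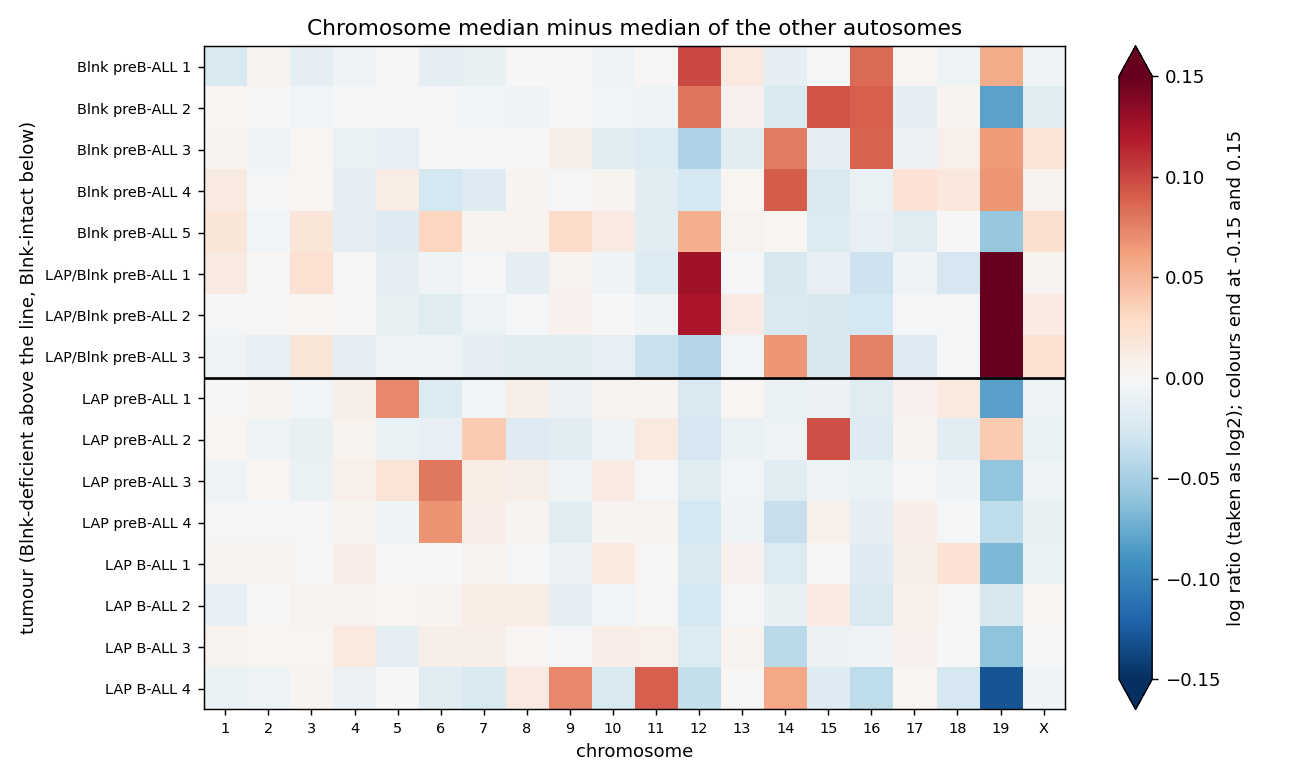
Median log2 ratio of each chromosome minus that of the other autosomes (colour, ending at -0.15 and 0.15) for 16 tumours in rows, with the 8 Blnk-deficient tumours above the line. Chromosome 19 is high in the 3 LAP/Blnk preB-ALL (0.22 to 0.37), and chromosomes 12 and 16 are high in some Blnk-deficient tumours.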

How the data were processed

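RNA of 16 tumours and 8 BKO408 cell-line arrays was measured on Affymetrix arrays from biotinylated cRNA, per the labels' protocols. Per the submitters' processing notes MAS5 was used, with no version stated. The deposited values are log ratios, taken as log2, and per the deposited table each probe set has a median of 0 over the 16 tumours. How the authors scaled the arrays before that is not stated, intensities and detection calls were not used here, and the number of arrays limits the precision.

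Of 45141 probe sets, 28898 had a single gene symbol in a platform annotation of 2016, 551 several and 15692 none, 104 of which were controls. Each of 17097 genes was represented by its probe set with the largest SD over the 16 tumours. The arms were tested in limma 3.58.1 under R 4.3.3 (two-sided moderated test, Benjamini-Hochberg over all genes, threshold 0.05). The labelled groups were compared by contrasts in a fit of all 4 groups. Single probe sets and chromosome medians were compared by exact permutation tests, whose smallest p for 8 against 8 is 0.000155. Tables were handled with pandas 2.3.3 and numpy 2.4.6, and the fit was tested on simulated data. Alternatives were other probe-set rules, normalisations, variance models, a LAP term, a replicate block and left-out tumours or groups.

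The text names every Blnk and Cebpb probe set, the 12 largest differences and 3 widest and 2 narrowest gaps of separating genes in each direction, the 2 genes nearest to separating, and up to 4 called members of each list. Other genes were named after their values were seen. The genes, lists and tests were chosen with earlier results of these data known. No gene list was tested as a set. Of 495 list genes 435 were measured.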

Additional observations from a re-analysis of the deposited data

Results flagged for a closer look

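Among 218 groups of 8 tumours, 89 genes and 20 chromosomes in each arm among them, the highest or lowest tumour stood apart in 22. Its distance to the nearest other tumour, as a share of the arm's range, was then above 0.526, which chance gives in about 1 of 20 groups. The tumour labelled LAP B-ALL 4 was the one in 9 of them: Arntl (0.746), Tifa (0.681), Myb (0.586), Cenpf (0.584), Itgax (0.54), and the medians of chromosomes 4 (0.53), 9 (0.858), 11 (0.813) and 14 (0.666). Blnk preB-ALL 2 stood apart for Vpreb1 (0.559), Vpreb2 (0.603), Lat2 (0.639) and chromosome 15 (0.823). LAP preB-ALL 2 stood apart for chromosomes 8 (0.537) and 15 (0.733), LAP preB-ALL 1 for Klrb1c (0.634) and chromosome 5 (0.616), and LAP preB-ALL 3 for Epha2 (0.713). Blnk preB-ALL 5 stood apart for Cd5 (0.564) and chromosome 6 (0.571), Blnk preB-ALL 3 for Krt6a (0.553) and LAP/Blnk preB-ALL 1 for Ly86 (0.641).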

How the results depend on the processing

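No named gene that passed the test changed sign under the alternatives run. Of those that did not pass, Cebpb turned to 0.61 and Blnk to 0.43 without the Blnk preB-ALL and with LAP as a second term, and Blnk to 0.025 without LAP preB-ALL 2. List medians near 0 changed sign in some settings for the Myc (-0.27 without the LAP B-ALL), p53, clock, sterol and stem cell lists, and that of dendritic cells did so without the erythroid-high tumours. Among named genes, alternatives that left out no single tumour kept the call in 944 cases and lost it in 295. For those that left out 1 tumour the figures were 1076 and 348. The count of genes that passed between the arms, 1343, became 253 without the LAP B-ALL (203 shared), 458 without the Blnk preB-ALL (306 shared), 20 without the 4 erythroid-high tumours (chosen after seeing the data), 4820 with array weights and 675 with LAP as a second term. It ran from 537 to 2350 with 1 tumour left out, the lowest without LAP B-ALL 1 and the highest without the tumour labelled LAP B-ALL 4. Separating genes, 147, became 524, 1411 and 270 in the first 3 settings, where fewer tumours must separate, and ran from 152 to 342 with 1 left out.

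For LAP/Blnk preB-ALL against tumours of LAP mice the count of 724 became 1104 with quantile normalisation, 124 without the erythroid-high tumours and 2650 with array weights, and ran from 269 to 1816 with 1 tumour left out. For Blnk preB-ALL the count of 208 became 57 with the mean of probe sets, 15 and 1430 in the last 2 settings, and ran from 72 to 1557. For LAP/Blnk against Blnk preB-ALL the count of 3 became 5 over single probe sets, 29 with quantile normalisation, 1 without the LAP B-ALL, 1 without the erythroid-high tumours and 33 with array weights, and ran from 2 to 13. For LAP B-ALL against LAP preB-ALL the count of 0 became 88 without the erythroid-high tumours and 4 with array weights, and ran from 0 to 291. The cause of these shifts was not tested.

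List medians moved without the LAP B-ALL to -0.046 for receptor signalling, 1.21 for V(D)J genes, -0.14 for the clock and -0.34 for sterol synthesis, and without the Blnk preB-ALL to -0.48 for the Bcl2 family and -0.66 for NK cells. Without the erythroid-high tumours they moved to 0.49 for receptor components, -0.33 for sterol synthesis, -0.048 for the Bcl2 family, -0.0048 for erythroid cells and 0.043 for dendritic cells. Over the more variable genes, chosen after seeing the data, the medians of chromosome 19 differed by 0.39 (exact permutation adjusted p = 0.0352), of chromosome 12 by 0.243 and of chromosome 16 by 0.166 (both adjusted p = 0.0361), and all 3 then passed.

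Groups share replicate numbers. Over 21 pairs of equal number the correlation of deviations ran from -0.64 to 0.383 with a median of 0.024, and 6 were over 0.1. Over 74 pairs of unequal number the median was -0.032, and 16 were over 0.1. With so few tumours in a group, these values cannot decide whether the numbers pair the tumours. With the number as a replicate block 894 genes passed, of which 776 had passed without it. Signal over background could not be judged from ratios.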

Other observations

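Several of the genes with the largest differences that passed the test belong to none of the lists, and they were picked here by size after their values were seen. Enpep, the aminopeptidase BP-1 that marks pre-B cells in mice, averaged 0.89 ± 0.66 in Blnk-deficient tumours and -4.68 ± 3.48 in Blnk-intact tumours (SD, n = 8 each; limma adjusted p = 0.0144). Ddc, which makes dopamine and serotonin, averaged 0.96 ± 0.90 in Blnk-deficient tumours and -2.64 ± 1.98 in Blnk-intact tumours, and Mei4, a factor for meiotic DNA breaks, averaged 0.80 ± 0.71 in Blnk-deficient tumours and -2.65 ± 2.08 in Blnk-intact tumours. In the other direction, the inhibitory receptor gene Btla averaged -1.83 ± 1.34 in Blnk-deficient tumours and 1.75 ± 1.92 in Blnk-intact tumours (limma adjusted p = 0.0157). Rasgrp1, an exchange factor for Ras in lymphocytes, averaged -0.95 ± 1.06 in Blnk-deficient tumours and 1.89 ± 1.79 in Blnk-intact tumours. The protease genes Ctse and Adamdec1 differed by -3.60 and -3.28. The arms overlapped for each of these 7 genes.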
